A study of Mus musculus with 8 samples.

Results

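Kinesins are motor proteins that use ATP to move along microtubules or to take their ends apart. The kinesin genes described here are the 37 genes of mouse whose symbol is Kif, a number and at most 1 letter from a to c, and that have a protein-coding transcript. They are 37 of 48440 genes in the deposited tables and of 21989 genes with a protein-coding transcript, and they have 159 transcripts, of which 86 are protein-coding. RNA was sequenced from oocytes at metaphase II (MII), oocytes at the germinal vesicle stage (GV), in vitro epiblast cells (EpiC) and embryonic stem cells (ESC), with 2 libraries in each of the 4 groups. PMSG, a gonadotropin, was given to the mice at 5 units, 48 h ahead of an injection that the labels do not name, and the GV label gives a medium with 2 µM milrinone, which holds oocytes before the meiotic divisions. The label of the MII samples repeats that text and gives no maturation step, and the strain, age and number of mice are not stated in the labels. ESC grew in 15% serum with LIF plus 2 inhibitors, PD0325901 and CHIR99021. Such cells gave rise to EpiC after LIF and the inhibitors were withdrawn 24 h after plating, with about 56 h more until collection. It is not said in the labels whether the 2 libraries of a group share an animal or culture, so p-values reflect the spread among these samples, which may be technical.

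Dividing cells need kinesins of several kinds. Plus-end motors such as Kif11 push spindle poles apart, chromosome-arm motors and kinetochore motors position chromosomes, and midzone motors such as Kif20a and Kif23 organise the central spindle on which cytokinesis depends. Outside division, kinesin-1 and kinesin-3 carry vesicles and organelles, and kinesin-2 drives transport inside cilia. An oocyte makes little or no new RNA between the germinal vesicle stage and fertilisation, so its mRNA over that time is known to change mainly by storage, adenylation and decay.

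Total estimated counts ran from 47463546 to 196788239 per library, and replicate 2 was the deeper one in every group. TMM, the scaling between libraries, gave factors of 0.422 and 0.405 to the MII libraries and of 1.07 to 1.58 to the other 6. A difference of counts under TMM and a difference in TPM (a level per length, scaled to the same total in each library) are therefore not interchangeable for MII. The log2 change of each gene in the TMM fit was subtracted from its change on the log2(TPM + 1) scale. Among genes with a mean of at least 10 TPM, the median of these gene-wise differences was −1.10 for MII against GV. It was −1.35 between MII and EpiC and −0.32 between GV and ESC. With relative log expression, another scaling, the median gene-wise difference from the TMM fit over all genes was 0.21 between MII and GV and 0.19 between MII and EpiC. Of the 12 oocyte markers, all had at least 1 TPM in MII and in GV, with sums of 25959 to 35436 TPM in MII and 26452 to 26681 TPM in GV, and 2 had that level in EpiC and in ESC. The sum of 11 naive pluripotency markers was 1776 to 2310.0 TPM in EpiC and 6222 to 7516 TPM in ESC, and that of 10 formative epiblast markers was 378 to 975 TPM in EpiC and 152 to 181 TPM in ESC. In oocytes the naive sum was 56.2 to 97.7 TPM in MII and 1089 to 1262 TPM in GV. The formative sum in oocytes was 148 to 228 TPM in MII and 149 to 175 TPM in GV. The sum of 14 cumulus and granulosa markers was 62.4 to 83.6 TPM in MII and 72.1 to 253.6 TPM in GV, against 133 to 216 TPM in EpiC and 60.4 to 75.2 TPM in ESC, and that of 10 fibroblast markers was 92.6 to 184 TPM in EpiC and 386 to 464 TPM in ESC. The sum of 6 blood and macrophage markers was at most 4.56 TPM in oocytes, 4.78 to 13.2 TPM in EpiC and 18.4 to 36.2 TPM in ESC. The part of other cell types in the values below was not tested, and in such bulk samples fewer cells of a type and less RNA per cell cannot be told apart.

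Kinesin mRNA took a larger share of TPM in oocytes than in the pluripotent cells and was spread over fewer genes in MII than in EpiC. The summed level of the 37 genes was 1479.6 and 1476 TPM in MII, 1485 and 1248 TPM in GV, 833 and 594 TPM in EpiC, and 859 and 709 TPM in ESC. A mean of at least 1 TPM was reached by 20 kinesins in MII, 28 in GV, 29 in EpiC and 27 in ESC. The 5 most abundant kinesins held 81.9% of the summed mean in MII, 73.6% in GV, 46.5% in EpiC and 53.5% in ESC. In MII these were Kif23, Kif20a, Kif20b, Kif18a and Kif2a, and in GV they were Kif23, Kif17, Kif22, Kif2c and Kif4. Both EpiC and ESC had Kif20a, Kif5b, Kif22 and Kif2c as their 4 most abundant kinesins. On GRCm38 in GENCODE M21, Kif23 (ENSMUSG00000032254.9) lies on chromosome 9 at 61915905-61946774, minus strand, Kif20b (ENSMUSG00000024795.10) lies on chromosome 19 at 34922361-34975745, plus strand, Kif18a (ENSMUSG00000027115.14) lies on chromosome 2 at 109280738-109341747, plus strand, and Kif17 (ENSMUSG00000028758.12) lies on chromosome 4 at 138250435-138301967, plus strand. Kif12 and Kif2b were near 0 throughout, with at most 2 estimated counts in any library, and did not enter the tests, which leaves 35 kinesins tested. Pseudogenes and antisense genes were looked up only where their symbol holds a kinesin symbol. Kif22-ps and Kif4-ps, 2 pseudogenes, reached at most 0.0129 and 0.822 TPM in any library and the antisense gene Kif16bos at most 0.568 TPM. Near-copies under other names were not searched, and the sharing of reads was not tested. The kit marks strand, and whether the assignment of reads used it is not stated in the labels.

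**Figure D1:**
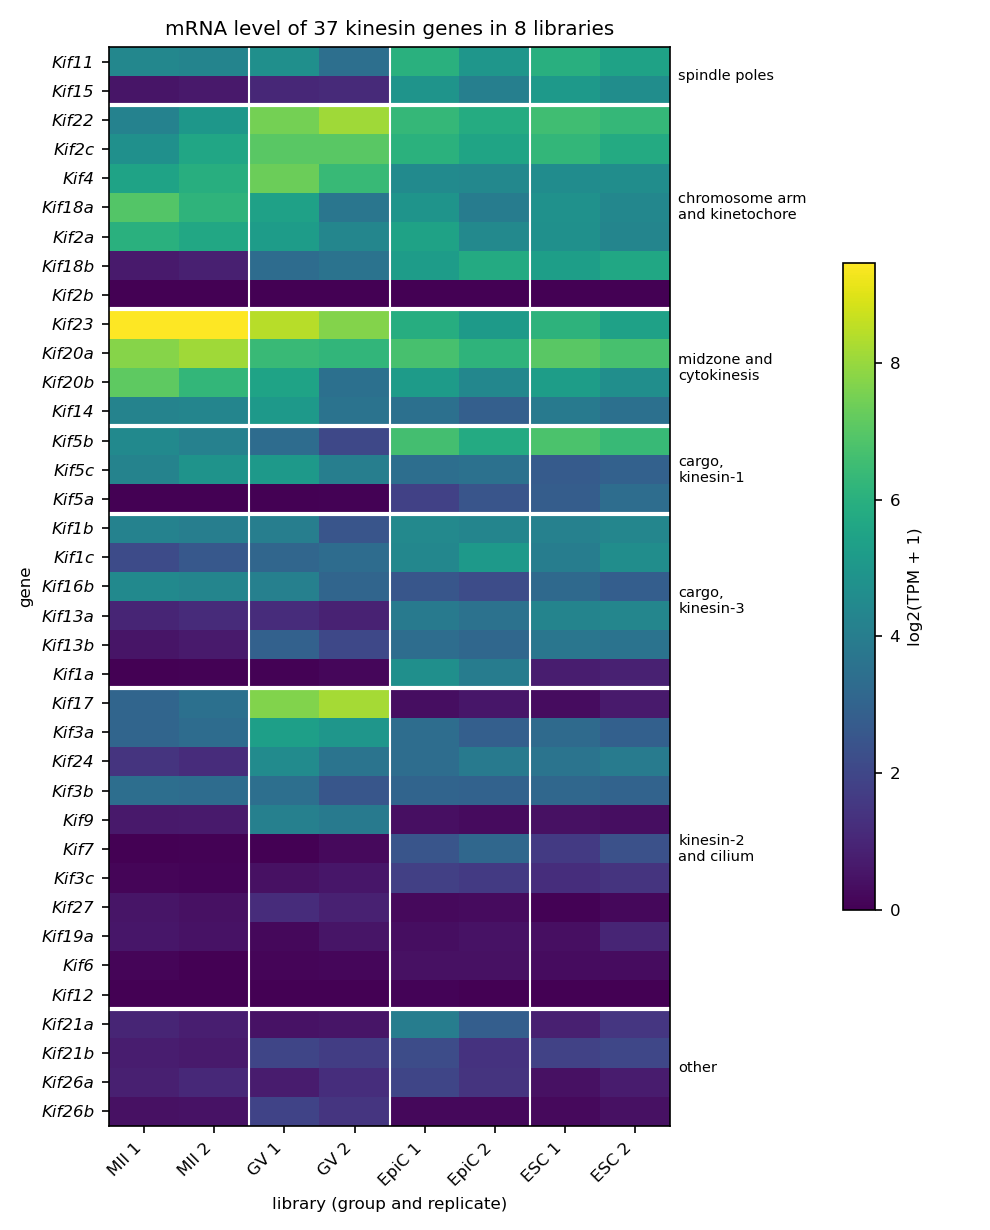
Level of each of the 37 kinesin genes, as log2(TPM + 1), in the 8 libraries, with genes in rows grouped by role and libraries in columns. Kif23 was the brightest row in MII and had the highest mean TPM in GV. In the deeper GV library Kif17 and Kif22 were brighter, at 291 and 277 TPM, against 207 TPM for Kif23. Kif17 was bright in GV alone among the 4 groups.

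Grouped by role, the midzone motors had the highest sum in MII and the chromosome arm and kinetochore motors the highest in GV, and the kinesin-2 and cilium group had a high sum in GV alone. The 4 midzone and cytokinesis genes summed to 1073 and 1078 TPM in MII, 511 and 302 TPM in GV, 206 and 131 TPM in EpiC and 252 and 179 TPM in ESC. The 11 kinesin-2 and cilium genes summed to 28.2 and 31.2 TPM in MII, 295 and 353 TPM in GV, 34.9 and 38.4 TPM in EpiC and 32.8 and 35.8 TPM in ESC. Most of that GV sum was Kif17. The 7 chromosome arm and kinetochore motors summed to 273 and 259 TPM in MII, 556 and 532 TPM in GV, 275 and 211 TPM in EpiC and 284 and 244 TPM in ESC. The 3 kinesin-1 genes went the other way between the kinds of cell, with 39.6 and 44.7 TPM in MII, 43.1 and 18.7 TPM in GV, 110.3 and 68.7 TPM in EpiC and 122 and 97.2 TPM in ESC. The spindle pole pair Kif11 and Kif15 summed to 20.1 and 18.6 TPM in MII and 26.03 and 11.2 TPM in GV, against 92.0 and 46.4 TPM in EpiC and 94.4 and 67.1 TPM in ESC. The 6 kinesin-3 genes, also lower in oocytes, summed to 43.2 and 41.4 TPM in MII and 47.9 and 25.4 TPM in GV, against 93.5 and 88.6 TPM in EpiC and 71.3 and 80.1 TPM in ESC.

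**Figure D2:**
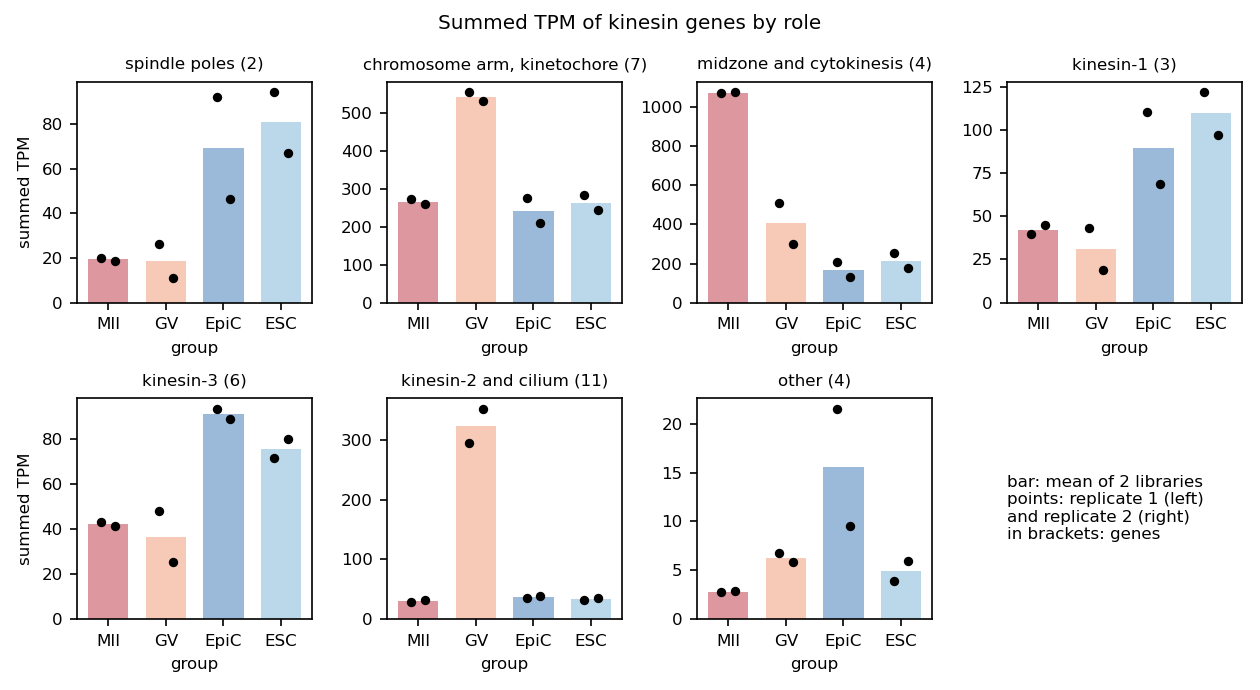
Summed TPM of the kinesin genes of each role in MII, GV, EpiC and ESC, with a bar at the mean of 2 libraries and a point for each library. The midzone panel peaks in MII near 1073 and 1078 TPM, and the kinesin-2 and cilium panel peaks in GV at 295 and 353 TPM.

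The comparison of MII with GV asks how the stored mRNA of an oocyte differs after maturation from before it. Of the 35 kinesins tested, 12 were called higher in MII, 7 were called lower and 16 did not pass, by edgeR's quasi-likelihood test on counts with Benjamini-Hochberg adjustment over all 25045 genes at a threshold of 0.05. Among all genes 17.4% were called higher and 22.2% lower, so the share of kinesins called higher, 34.3%, lay above that of all genes, and the share called lower, 7 of 35, was close to it. On log2(TPM + 1) with limma the split was 5 higher and 12 lower, against 9.61% and 32.6% of all genes. The median log2 fold change was 0.03 for the kinesins and −0.53 for all genes tested. Log2 fold changes below are of TMM-scaled counts, MII over GV, with an approximate standard error (the size of the change divided by the root of its F statistic), and adjusted p-values are from that edgeR test.

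Of the midzone and cytokinesis motors, 3 of 4 were called higher in MII. Kif20b, a motor needed for the last steps of cytokinesis, had 138 and 76.8 TPM in MII and 43.4 and 10.2 TPM in GV, a log2 fold change of 3.18 ± 0.64 (adjusted p = 0.00365). Kif20a, which brings the chromosomal passenger complex to the midzone, had 214 and 278 TPM in MII and 83.6 and 73.8 TPM in GV, a change of 2.81 ± 0.36 (adjusted p = 0.000586). Kif23, the motor subunit of centralspindlin, had 703 and 704 TPM in MII and 351 and 207 TPM in GV, a change of 2.51 ± 0.41 (adjusted p = 0.00138). In all 3 genes both MII libraries lay above both GV libraries, as in 17.3% of all genes by TPM, while in 56.2% both lay below, and all 3 passed on log2(TPM + 1) too, with differences of 2.22, 1.62 and 1.38. Kif14, a midbody motor, did not pass, at 1.02 ± 0.45 on counts and −0.10 on log2(TPM + 1). It was called without GV 1, at 1.71, with DESeq2, at 1.24, with protein-coding transcripts alone, at 1.16, and with the replicate number as a block, at 1.14, and stood at 0.49 without GV 2. Its MII libraries, at 17.6 and 18.8 TPM, lay between the GV libraries at 33.2 and 11.3 TPM.

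Motors of chromosome arms and kinetochores moved in both directions. Kif18a, which dampens the movements of chromosomes on the metaphase plate, had 122 and 70.0 TPM in MII and 41.3 and 12.01 TPM in GV and rose by 3.03 ± 0.58 (adjusted p = 0.00286). Kif2a, a microtubule depolymerase at spindle poles, had 63.3 and 50.2 TPM in MII and 36.7 and 19.4 TPM in GV. Its counts rose by 2.39 ± 0.47 (adjusted p = 0.00339), while log2(TPM + 1) gave 1.05 and did not pass. Its paralogue Kif2c, the depolymerase of the inner centromere, had 25.8 and 47.4 TPM in MII and 129.6 and 129 TPM in GV, not called on counts at −0.65 ± 0.39 but lower on log2(TPM + 1), at −1.86. Kif22, which pushes chromosome arms away from the poles, fell to 17.5 and 31.1 TPM in MII, against 177 and 277 TPM in GV, a change of −2.07 ± 0.43 (adjusted p = 0.00437). Kif18b, a depolymerase of growing microtubule ends, fell to 0.595 and 0.801 TPM in MII, against 9.14 and 11.3 TPM in GV, a change of −2.70 ± 0.43 (adjusted p = 0.00127). The MII and GV libraries of these genes did not overlap, as was so upward for 17.3% and downward for 56.2% of all genes by TPM. Kif4, a chromokinesin that also works with Prc1 at the midzone, had other values on each scale. Its levels were 43.5 and 59.5 TPM in MII and 162 and 82.3 TPM in GV. It was not called on counts, at −0.02 ± 0.38, or at 0.20 under relative log expression, but was called lower on log2(TPM + 1), at −1.17.

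Of the pole motors, Kif11 had 19.6 and 18.1 TPM in MII, inside the range of GV at 24.9 and 10.03 TPM. Its call on counts, 1.29 ± 0.45 (adjusted p = 0.0487), was lost without GV 2, MII 1, MII 2, ESC 1 or ESC 2, with values of 0.80 to 1.29, and on log2(TPM + 1) it did not pass, at 0.23. Kif15, which backs up Kif11, stayed near 1 TPM or below, with 0.463 and 0.56 TPM in MII and 1.08 and 1.19 TPM in GV, and was not called at 0.02 ± 0.36.

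Among cargo motors, the ubiquitous kinesin-1 heavy chain Kif5b rose, with 21.7 and 16.8 TPM in MII and 9.13 and 3.17 TPM in GV, a change of 2.91 ± 0.50 (adjusted p = 0.00166). It passed on log2(TPM + 1) as well, at 1.63. Kif5c, a kinesin-1 heavy chain best known in neurons, had 17.9 and 28.0 TPM in MII and 33.9 and 15.5 TPM in GV, and the groups overlapped. Kif5a, the neuronal kinesin-1, had 1 estimated count in the 2 MII libraries together and 33 in the 2 GV libraries, a ratio of 0.0819 with an exact 95% interval of 0.00201 to 0.490 that covers counting error only. Its call as lower was lost without GV 2, MII 1 or MII 2, at fitted values of −6.71 to −2.85. Of the kinesin-3 motors, Kif1b, known for moving mitochondria and synaptic vesicle precursors, and Kif16b, a motor of early endosomes, rose on counts by 2.03 ± 0.46 and 1.94 ± 0.41 and did not pass on log2(TPM + 1), at 0.83 and 0.80. Kif13a, an endosomal motor, was called at 1.16 ± 0.35 on counts but stood at −0.01 on log2(TPM + 1), with 0.963 and 1.21 TPM in MII and 1.32 and 0.887 TPM in GV. That call was lost without GV 1, GV 2, MII 2, ESC 1 or ESC 2, at 0.92 to 1.29, and without a filter on low counts, at 0.95. Its relative Kif13b fell to 0.463 and 0.594 TPM in MII, against 6.74 and 3.12 TPM in GV, a change of −2.03 ± 0.43 (adjusted p = 0.00509).

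The deepest fitted falls, −3.65 and −3.47, were those of Kif17 and Kif9 in the kinesin-2 and cilium group. Kif17, a homodimeric kinesin-2 known from dendrites, cilia and male germ cells, fell to 7.49 and 10.3 TPM in MII, against 204 and 291 TPM in GV, a change of −3.65 ± 0.58 (adjusted p = 0.00121). Kif9, known from the sperm flagellum, fell to 0.572 and 0.597 TPM in MII, against 16.5 and 13.5 TPM in GV, a change of −3.47 ± 0.47 (adjusted p = 0.000665). The centriolar depolymerase Kif24 fell to 1.69 and 1.33 TPM in MII, against 22.4 and 11.5 TPM in GV, a change of −2.42 ± 0.40 (adjusted p = 0.00145). In these 3 genes both MII libraries lay below both GV libraries, as in 56.2% of all genes by TPM. Kif3a and Kif3b, which pair in heterotrimeric kinesin-2, gave different values. Kif3a had 7.53 and 9.09 TPM in MII and 39.4 and 30.1 TPM in GV, and was not called on counts at −0.64 ± 0.36 but was lower on log2(TPM + 1) at −1.93. Kif3b had 9.77 and 9.06 TPM in MII and 10.03 and 4.78 TPM in GV, so that the groups overlapped, and its call of 1.52 ± 0.39 was lost without GV 2 or MII 1, at 1.11 to 1.40, and on log2(TPM + 1), at 0.38. The remaining called gene was Kif21a, a regulator of microtubule growth at the cell cortex, which stayed below 1 TPM with 0.947 and 0.736 TPM in MII and 0.377 and 0.448 TPM in GV. Its call, 2.16 ± 0.56, was lost without GV 1, GV 2 or MII 1, at 1.86 to 2.35, and on log2(TPM + 1), at 0.38.

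**Figure D3:**
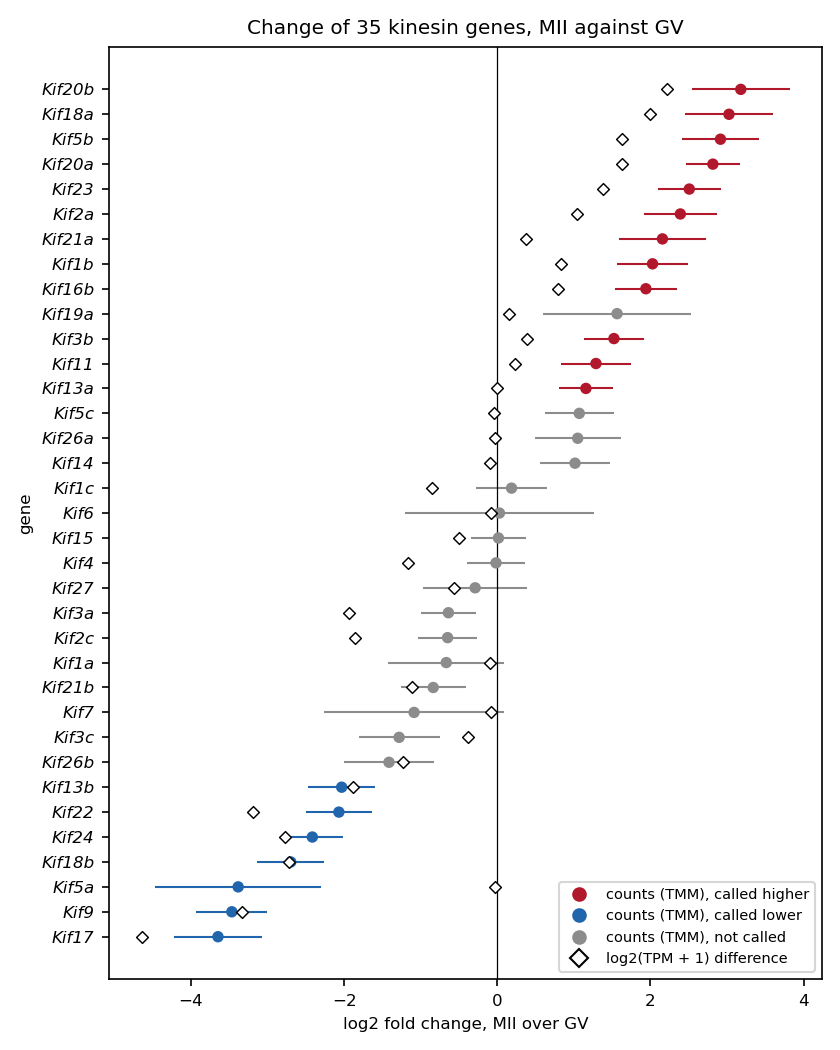
Log2 fold change of the 35 tested kinesins, MII over GV, as filled points with the approximate standard error for TMM-scaled counts and as open diamonds for the difference in log2(TPM + 1). Kif20b, Kif18a, Kif5b, Kif20a and Kif23 lie to the right of 0 on both scales, and Kif17, Kif9, Kif18b, Kif24, Kif22 and Kif13b lie to the left on both.

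The 2 GV libraries were not alike in the genes called higher in MII. Of these 12 kinesins, 11 were lower in GV 2 than in GV 1, with a median ratio of 0.467 in TPM, while among the 7 called lower 3 were lower in GV 2, with a median ratio of 1.24. Of the 16 kinesins not called, 8 were lower in GV 2, with a median ratio of 1.02. Over 13026 genes with at least 1 TPM in both GV libraries, 7255 were lower in GV 2 and the median ratio was 0.939. The part of this difference between libraries in the result was not tested. Leaving out any 1 library left 8 to 12 kinesins called higher and 6 to 7 called lower.

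**Figure D4:**
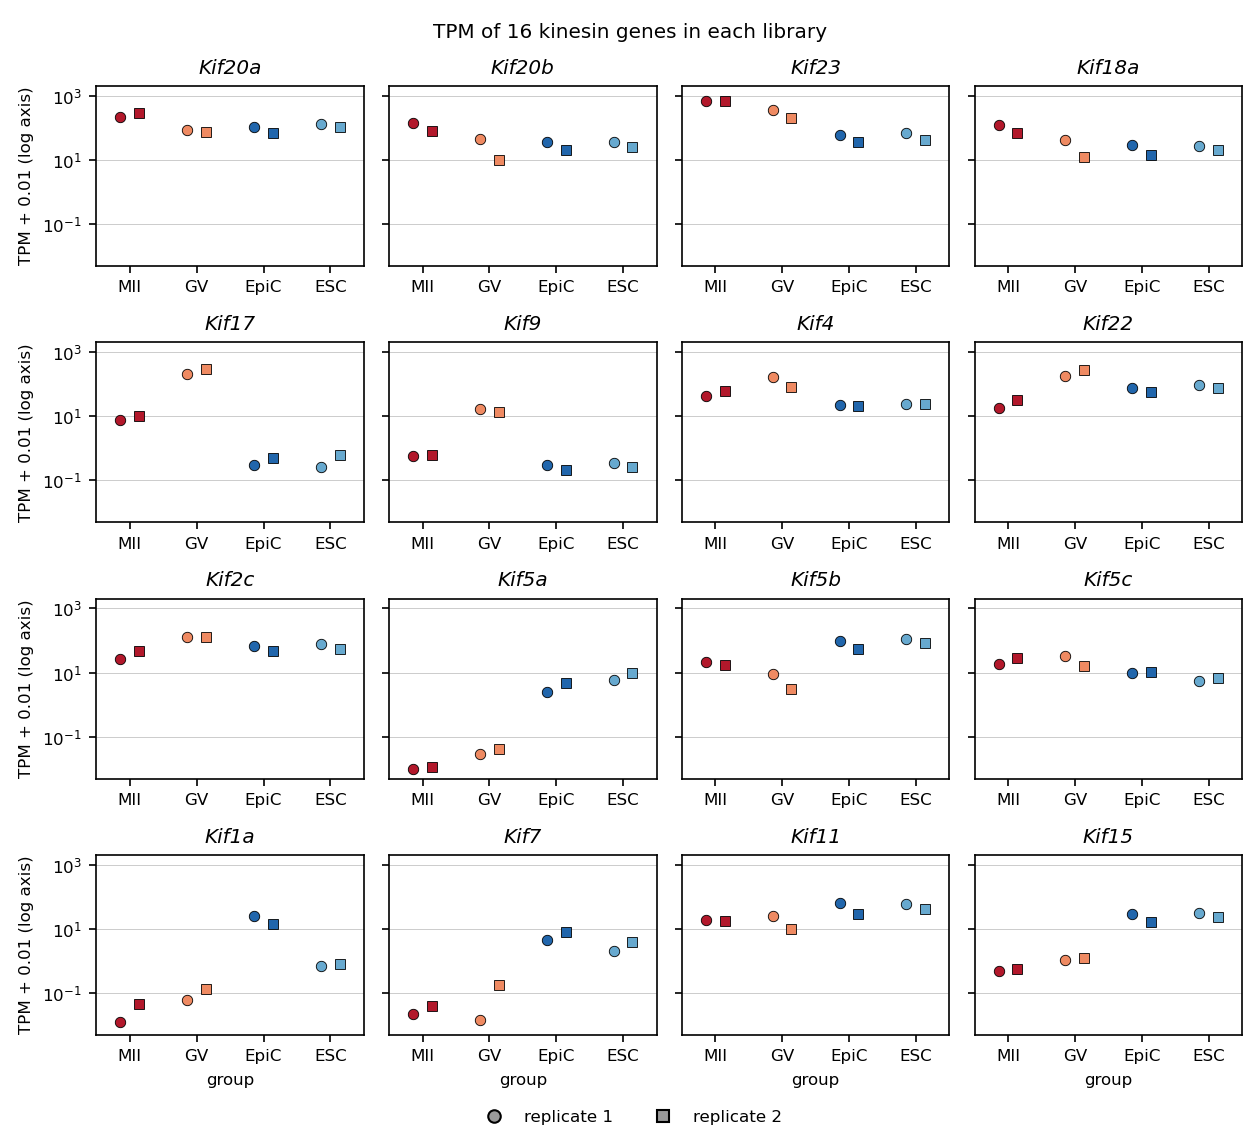
TPM of 16 kinesin genes in each library on a log axis, with 0.01 added so that values of 0 can be drawn, and with replicate 1 as circles and replicate 2 as squares. Kif17 and Kif9 stand far higher in GV than in the other groups, and Kif5a, Kif1a and Kif7 stand far lower in both kinds of oocyte than in EpiC.

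The comparison of GV with ESC sets oocytes before any meiotic division against stem cells that divide by mitosis. Of 35 kinesins, 14 were called higher in GV, 9 lower and 12 did not pass, where 28.3% of all genes were called higher and 31.3% lower. Without ESC 1, the number called higher was 9. On log2(TPM + 1) the counts were 9 higher and 10 lower, against 27.5% and 32.8% of all genes. The median log2 fold change was 0.28 for kinesins and −0.51 for all genes.

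Kif17 set the groups furthest apart, with 204 and 291 TPM in GV and 0.255 and 0.624 TPM in ESC, which gave 9.79 ± 0.77 as log2 of GV over ESC (adjusted p = 1.77e-05). Protein-coding transcripts held all of its TPM in GV and 44.7% and 37.5% in the ESC libraries, where the gene had 22 and 179 estimated counts. Kif9 had 16.5 and 13.5 TPM in GV and 0.34 and 0.261 TPM in ESC, a change of 5.94 ± 0.52. Kif27, a relative of Kif7 known from motile cilia, was low in both, at 1.29 and 0.826 TPM in GV and 0.0454 and 0.137 TPM in ESC, and was called higher at 3.76 ± 0.76. Kif3a had 39.4 and 30.1 TPM in GV and 8.76 and 6.56 TPM in ESC, a change of 2.39 ± 0.38. Kif7, the cilium-tip regulator of Hedgehog signalling, was near absent from GV, with 1 and 105 estimated counts that gave 0.00462 and 0.171 TPM, against 2.05 and 4.05 TPM in ESC, and was called lower at −4.68 ± 1.18, or −9.03 without GV 2. Kif3c, the neuronal kinesin-2 subunit, was called lower at −1.58 ± 0.52, a call lost without GV 1, GV 2, MII 1, ESC 1 or ESC 2, at −1.88 to −1.04, without a filter on low counts, at −1.30, and with the compared groups alone, at −1.38.

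Spindle motors differed member by member. Kif23 had 351 and 207 TPM in GV and 68.9 and 41.2 TPM in ESC, a change of 2.66 ± 0.41 (adjusted p = 0.000638). Kif4 had 162 and 82.3 TPM in GV and 23.5 and 24.0 TPM in ESC, a change of 2.69 ± 0.40, and Kif22 had 177 and 277 TPM in GV and 94.1 and 78.2 TPM in ESC, a change of 1.84 ± 0.43. Kif15 was the spindle motor with the deepest deficit, at 1.08 and 1.19 TPM in GV and 32.5 and 23.9 TPM in ESC, a change of −4.30 ± 0.41 (adjusted p = 4.26e-05). Kif11 had 24.9 and 10.03 TPM in GV and 61.9 and 43.3 TPM in ESC, and its call of −1.29 ± 0.45 was lost without GV 2, MII 1, MII 2, ESC 1 or ESC 2, at −1.49 to −0.80, and with the compared groups alone, at −1.07. Kif18b was called lower at −1.72 ± 0.42, and not without GV 1, at −1.25. Kif14 and Kif2c were called higher at 1.42 ± 0.46 and 1.40 ± 0.39. The Kif14 call was lost without GV 1, ESC 1 or ESC 2, at 0.89 to 1.59, and with a length offset, at 1.16, and that of Kif2c without ESC 2, at 1.19. Kif20a, Kif20b, Kif18a and Kif2a did not pass, at −0.26, 0.09, 0.56 and 0.70.

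The 3 kinesin-1 heavy chains split between the cells. Kif5c had 33.9 and 15.5 TPM in GV and 5.62 and 6.64 TPM in ESC and was higher by 2.87 ± 0.48 (adjusted p = 0.000936). Kif5b, the most abundant of the 3 in ESC, had 9.13 and 3.17 TPM in GV and 110.3 and 81.1 TPM in ESC, a change of −3.76 ± 0.52 (adjusted p = 0.000317). Kif5a had 0.0191 and 0.0316 TPM in GV and 5.93 and 9.51 TPM in ESC, a change of −7.86 ± 0.75. Of the kinesin-3 motors, Kif13a was lower in GV at 1.32 and 0.887 TPM, against 18.5 and 19.2 TPM in ESC, a change of −3.79 ± 0.39. Kif1a, the neuronal motor of synaptic vesicle precursors, was lower at −2.33 ± 0.72, but was not called without GV 1, at −1.56. Kif16b was called higher at 1.05 ± 0.40, and the call was lost without GV 1, MII 2, ESC 1, ESC 2, EpiC 1 or EpiC 2, at 0.72 to 1.27. It was lost as well under relative log expression and DESeq2, at 1.01, with a length offset, at 0.99, and with protein-coding transcripts alone, at 0.94. The other called genes were Kif26b, Kif26a and Kif24, at 2.51 ± 0.60, 1.55 ± 0.57 and 1.55 ± 0.39. Each was lost without ESC 1, at 2.09 for Kif26b and 1.46 for Kif24, while Kif26a was also lost without GV 2 or ESC 2, with values of 0.86 to 2.00. With a length offset Kif24 and Kif26a were not called, at 0.67 and 1.36, nor was Kif26a with protein-coding transcripts alone, at 1.39. On log2(TPM + 1) the calls of Kif26a, Kif24, Kif14, Kif2c, Kif16b and Kif1a did not pass, at −0.70 to 0.999.

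MII oocytes and EpiC gave the largest number of kinesin calls. Of 35 kinesins, 17 were called higher in MII, 10 lower and 8 did not pass, where 28.5% of all genes were called higher and 39.6% lower. The split again differed on log2(TPM + 1), with 7 higher and 16 lower, against 18.8% and 45.7% of all genes. The median log2 fold change was 0.98 for kinesins and −1.23 for all genes. All 4 midzone motors were called higher on counts, and Kif23 led them with 703 and 704 TPM in MII and 57.8 and 34.8 TPM in EpiC, a change of 5.41 ± 0.47 (adjusted p = 1.94e-05). Kif20a had 214 and 278 TPM in MII and 103 and 70.6 TPM in EpiC, and Kif20b had 138 and 76.8 TPM in MII and 35.1 and 19.7 TPM in EpiC. Their changes were 2.99 ± 0.36 and 3.44 ± 0.64, and both passed on log2(TPM + 1) at 1.51 and 1.93, unlike Kif14 at 1.08. Kif18a, Kif4, Kif16b and Kif17 also passed on both scales, with count changes of 3.69 ± 0.60, 2.93 ± 0.41, 3.76 ± 0.44 and 6.36 ± 0.67. Kif17 had 7.49 and 10.3 TPM in MII and 0.29 and 0.502 TPM in EpiC, so its level in MII, low beside GV, was above that of EpiC.

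Several of the count-based calls of MII against EpiC were not made on log2(TPM + 1). The scaling, the test and the 1 added to TPM all differ there, and their parts were not tested. Kif9, Kif27 and Kif26b had mean levels under 1 TPM in both groups. Kif9, Kif5c, Kif2a, Kif27, Kif26b, Kif3b and Kif3a were called higher on counts, at 3.10, 2.79, 2.67, 2.37, 2.30, 1.85 and 1.68, and none of the 7 passed on log2(TPM + 1), at 0.09 to 1.08. The Kif27 call was also lost without EpiC 1, at 2.06. Kif1b and Kif2c changed sign between the scales, at 1.25 ± 0.45 and 0.98 ± 0.39 on counts and −0.26 and −0.63 on log2(TPM + 1). Their calls were lost without 4 libraries for Kif1b (MII 1, MII 2, EpiC 1 or EpiC 2), at 1.22 to 1.42, and without 6 for Kif2c (GV 2, MII 2, ESC 1, ESC 2, EpiC 1 or EpiC 2), at 0.41 to 1.11, while without MII 1 Kif2c stood at 1.58. With a length offset they were lost too, at 1.15 and 0.86, with the compared groups alone, at 0.95 and 0.71, and that of Kif2c with protein-coding transcripts alone, at 0.80.

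The 10 kinesins called lower in MII than in EpiC on counts had negative changes on both scales. More kinesins were called lower on log2(TPM + 1), as given above, and those called there alone are not named here. Kif5a had 1 estimated count in MII and 3119 in EpiC, a ratio of 0.000681 with an exact 95% interval of 1.72e-05 to 0.0038 for counting error. Kif1a had 0.00293 and 0.0359 TPM in MII and 25.1 and 14.5 TPM in EpiC, a change of −7.89 ± 0.93 (adjusted p = 8.89e-05). Kif7 had 0.012 and 0.0288 TPM in MII and 4.67 and 7.92 TPM in EpiC, a change of −6.86 ± 1.35. Kif18b, with 0.595 and 0.801 TPM in MII and 36.8 and 54.2 TPM in EpiC, changed by −4.53 ± 0.47, and Kif15, with 0.463 and 0.56 TPM in MII and 28.7 and 16.2 TPM in EpiC, by −3.95 ± 0.40. Kif3c, Kif13b and Kif13a changed by −3.43 ± 0.56, −2.56 ± 0.44 and −2.03 ± 0.36. Kif21a was called at −2.17 ± 0.56, but not without EpiC 1, at −1.61. Kif1c, a motor of vesicle transport between Golgi and cell edge, was called at −1.20 ± 0.47, and not without GV 1, GV 2, MII 1, MII 2 or EpiC 2, at −1.57 to −0.56, nor under relative log expression, at −0.99.

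On exit from the naive state, EpiC against ESC, few genes of any kind were called. Of 35 kinesins, 3 were called higher in EpiC (8.57%) and none lower, where 2.63% of all genes were called higher and 2.83% lower. At an unadjusted p under 0.05, 0 kinesins were lower by edgeR, 1 by DESeq2 and 2 by limma on log2(TPM + 1), and after adjustment DESeq2 and limma also called 0 lower. Limma called 3 higher, where it called 5.14% of all genes higher and 6.14% lower. Kif1a had 25.1 and 14.5 TPM in EpiC and 0.701 and 0.818 TPM in ESC, which gave 4.90 ± 0.79 as log2 of EpiC over ESC (adjusted p = 0.00906), and the groups did not overlap, as was so upward for 21.6% and downward for 22.2% of all genes. That call was lost without ESC 1 or ESC 2, at 4.88 and 4.89, values that hardly differ from the full fit. Kif21a had 15.0 and 6.16 TPM in EpiC and 0.769 and 1.85 TPM in ESC, a change of 2.96 ± 0.58 (adjusted p = 0.02), lost without ESC 1 or EpiC 1, at 2.43 and 2.38, and with the compared groups alone, at 3.03. Kif26a, a kinesin without ATPase activity that is known to restrain growth signalling in enteric neurons, had 2.89 and 1.7 TPM in EpiC and 0.327 and 0.629 TPM in ESC, a change of 2.40 ± 0.59 (adjusted p = 0.0488). Its call was lost without GV 2, MII 1, MII 2, ESC 1, ESC 2, EpiC 1 or EpiC 2, at 2.06 to 2.84, with a length offset, at 2.24, and with the compared groups alone, at 2.44. The number of kinesins called higher was 0 without ESC 1, 1 without ESC 2 and 1 without EpiC 1. None of the 12 tested spindle and midzone kinesins was called, and their fold changes ran from −0.52 for Kif14 to 0.43 for Kif2a. Every tested spindle kinesin except Kif18b and Kif4 had a lower TPM in replicate 2 than in replicate 1 of both EpiC and ESC.

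The difference between the change at maturation, MII over GV, and the change at naive exit, EpiC over ESC, was tested in the same fit. It was called above 0 for 8 kinesins and below 0 for 5, with 22 not passing, where 13.2% and 16.4% of all genes were called. On log2(TPM + 1) it was above 0 for 1 and below 0 for 13, against 10.3% and 30.3% of all genes. Without MII 1 the number above 0 was 5. Kif20a was above 0 on both scales, at 3.24 ± 0.48 on counts (adjusted p = 0.00235) and 2.07 on log2(TPM + 1). Below 0 on both scales were Kif1a, Kif17, Kif9, Kif18b and Kif24, with count differences of −5.56 ± 1.06, −3.44 ± 0.78, −2.84 ± 0.63, −2.81 ± 0.59 and −2.34 ± 0.55. That of Kif24 was not called without ESC 1, at −2.25, and that of Kif1a was −8.53 without MII 2.

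**Figure D5:**
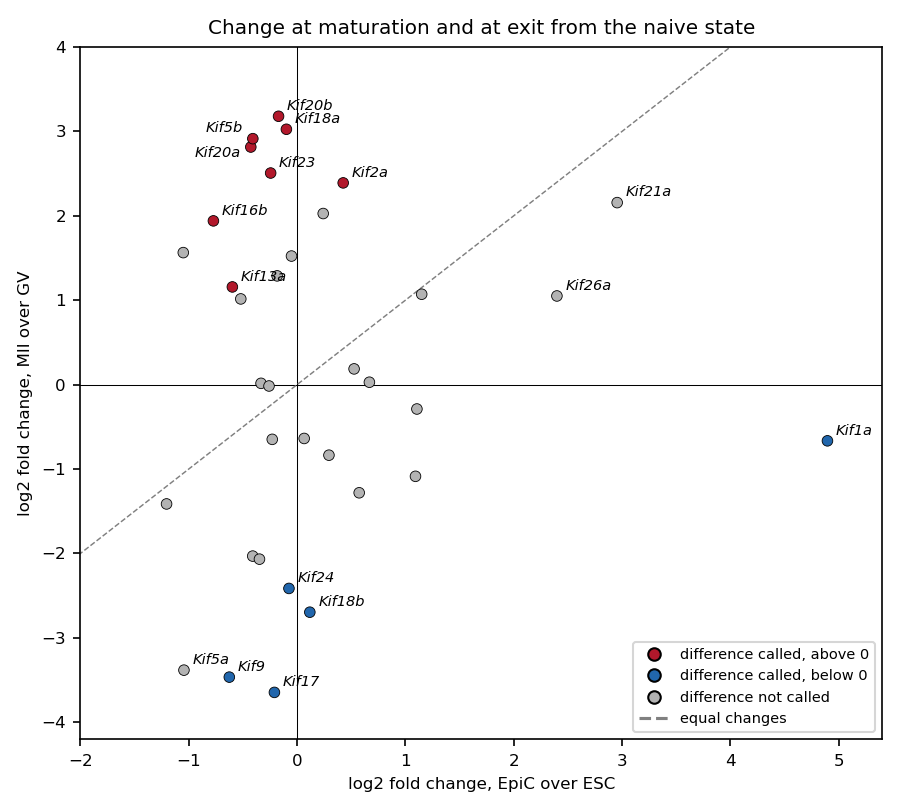
Log2 fold change of the 35 tested kinesins on TMM-scaled counts, EpiC over ESC on the horizontal axis and MII over GV on the vertical axis, coloured where their difference was called, with the dashed line where both are equal. Most points lie close to 0 along the horizontal axis and spread along the vertical one, and Kif1a lies far to the right at 4.90.

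Which transcripts carried these counts was tested for 24 kinesins with at least 2 transcripts measured. Usage was called for 6 of them (25.0%) in GV against ESC, where 26.8% of all genes tested were called, and for 13 (54.2%) in MII against EpiC, where 31.2% were. No kinesin was called in MII against GV, where 5.99% of genes were, or in EpiC against ESC, where 0.092% were (diffSpliceDGE of edgeR, Simes p per gene; 5 and 0 kinesins had an unadjusted p under 0.05). With the replicate number as a block, usage was called for 2 kinesins in MII against GV, and with the compared groups alone for 1 of the 15 then tested. The calls were fragile to single libraries, with 0 to 5 left in GV against ESC and 1 to 13 in MII against EpiC when 1 library was left out, the lowest without GV 1 and without MII 2. Kif24-004, a transcript annotated as noncoding, held 2.57% of the TPM of Kif24 in GV and 52.3% in ESC. Kif14-001, the long coding transcript, held 72.2% of the Kif14 TPM in MII and 36.8% in EpiC. Kif20a-202 held 86.9% of the Kif20a TPM in GV, against 36.5% in ESC, and 85.1% in MII, against 34.3% in EpiC. Kif20a-201 and Kif20a-202 are 3567 and 3565 bases long, and the error of assigning reads to such similar transcripts is not known here. The calls of Kif24 and Kif20a in GV against ESC were lost without GV 1, GV 2, ESC 1 or ESC 2, and those of Kif20a and Kif14 in MII against EpiC without any of MII 1, MII 2, ESC 1, ESC 2, EpiC 1 or EpiC 2. That of Kif14 in MII against EpiC was also lost without a filter on low counts, with the replicate number as a block and with the compared groups alone.

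Genes that work with kinesins were described from lists of 117 symbols, of which 115 were found and tested. In MII against GV 31 were called higher and 39 lower, where 17.4% and 22.2% of all genes were. In EpiC against ESC 1 was called higher and 3 lower, against 2.63% and 2.83% of all genes, in GV against ESC 45 and 22, against 28.3% and 31.3%, and in MII against EpiC 46 and 41, against 28.5% and 39.6%. Spindle and midzone partners split in MII against GV, with 14 of 32 higher (43.8%) and 11 lower (34.4%) on counts, beside the 17.4% and 22.2% of all genes, and a median of 0.39, against −0.53 for all genes. With limma on log2(TPM + 1), 11 were higher and 13 lower, where 9.61% and 32.6% of all genes were. Ckap5, a microtubule polymerase, had 172 and 154 TPM in MII and 45.1 and 14.4 TPM in GV, a change of 3.63 ± 0.55. Tacc3, its partner on kinetochore fibres, fell to 3.2 and 19.9 TPM in MII, against 967 and 1084 TPM in GV, a change of −5.22 ± 0.82. Nusap1, a spindle microtubule stabiliser, fell to 3.57 and 8.07 TPM in MII, against 244 and 140.3 TPM in GV, a change of −3.66 ± 0.52. Prc1, the midzone crosslinker that Kif4 and Kif20a work with, had 700.4 and 833 TPM in MII and 93.3 and 76.4 TPM in EpiC, a change of 4.86 ± 0.41, and Cit, the citron kinase that Kif14 places at the midbody, changed by 4.57 ± 0.37. Cenpe, a kinetochore kinesin outside the symbol rule, rose with Kif18a, at 163 and 118 TPM in MII and 38.1 and 18.6 TPM in GV, a change of 3.64 ± 0.61. Of the 6 motors outside the rule, 2 were higher and 1 lower in MII than in GV on counts, and 1 and 0 on log2(TPM + 1). Of 6 light chains and associated subunits, 0 were higher and 1 was lower.

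Of 22 cargo adaptors, 4 were higher and 4 lower in MII than in GV (18.2% each way, close to the shares of all genes), with 2 and 5 on log2(TPM + 1), and 3 were lower in EpiC than in ESC on both scales. Of these 3, Hap1, an adaptor of huntingtin and kinesin-1, had 6.01 and 2.81 TPM in EpiC and 82.8 and 53.9 TPM in ESC, a change of −3.92 ± 0.54. Trak1, the mitochondrial adaptor that joins Rhot proteins to kinesin-1, had 9.04 and 11.5 TPM in EpiC and 22.6 and 26.6 TPM in ESC, a change of −1.32 ± 0.31, and Jakmip1 changed by −2.88 ± 0.40. Rhot1, the mitochondrial adaptor of kinesin-1, had 433 and 411 TPM in MII and 189 and 101 TPM in GV, a change of 2.70 ± 0.41, while its paralogue Rhot2 fell to 1.25 and 2.71 TPM in MII, against 43.7 and 64.8 TPM in GV, a change of −3.62 ± 0.48. Of 21 intraflagellar transport genes, 8 were lower (38.1%) and 5 higher (23.8%) in MII than in GV on counts, where 22.2% of all genes were lower and 17.4% higher, and 9 were lower and 2 higher on log2(TPM + 1). In GV against ESC 8 of them were higher and 2 lower, where 28.3% of all genes were higher and 31.3% lower. Ift46 fell to 2.64 and 5.91 TPM in MII, against 252 and 266 TPM in GV, a change of −4.56 ± 0.51. Kifap3, the subunit that joins Kif3a and Kif3b, was low in oocytes, with 1.8 and 1.06 TPM in GV and 18.4 and 9.91 TPM in ESC, and 0.18 and 0.265 TPM in MII against 22.9 and 7.49 TPM in EpiC. Of 29 dynein and dynactin genes, 14 were lower (48.3%) and 6 higher (20.7%) in MII than in GV, where 22.2% of all genes were lower and 17.4% higher, with a median of −1.46, against −0.53 for all genes. By limma on log2(TPM + 1), 20 were lower and 1 higher, where 32.6% of all genes were lower and 9.61% higher. Dync1h1, the heavy chain of cytoplasmic dynein, had 6.07 and 4.81 TPM in GV and 68.2 and 108 TPM in ESC, a change of −3.60 ± 0.55, and 0.206 and 0.67 TPM in MII and 55.9 and 92.6 TPM in EpiC, a change of −5.53 ± 0.61.

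One sequence feature that the symbol rule did not use was found in more promoters of spindle kinesins than of other kinesins. Many cell-cycle genes carry a CHR element near their start, with the letters TTTGAA, which the DREAM complex is known to bind. Promoter windows of 300 bases, 250 before and 50 after the RefSeq start, were taken on GRCm38.p6. They were available for 31 of the 37 kinesins, that is all but Kif13b, Kif19a, Kif20a, Kif21b, Kif5a and Kif5b. Kif20a and Kif5b lie on the same chromosome, whose promoters were left out of the search. Whether these 2 genes carry the element was therefore not tested, and the shares below, those of all genes included, do not cover that chromosome. The RefSeq start is not always the GENCODE M21 gene start. The windows of Kif14 (chr1:136467598-136467897) and Kif2c (chr4:117178723-117179022) lie inside genes that start at 136466343 and 117182639. The Kif4 window, from 100625815, lies inside a gene that starts at 100625737, and those of Kif17 and Kif27 also lie inside their genes. Bases after the start matched the beginning of a listed transcript for 23 of 35 windows. TTTGAA on either strand was in the window of 9 of 12 kinesins with a spindle or midzone role, Kif2b among them (75.0%), in 3 of 19 other kinesins (15.8%) and in 20.2% of 27025 genes. Within 30 bases of the start, a limit chosen after the positions were seen, it was found for 7 of 12 spindle kinesins (58.3%), 1 of 19 others (5.26%) and 3.72% of all genes. CCAAT, searched for comparison, was in 58.3% of the spindle kinesins, 36.8% of the others and 41.1% of all genes. The 60-base windows of those 7 spindle kinesins are shown, and that limit selected them for the position of the element beside the start. In Kif26b, the 1 other kinesin within the limit, the element begins at −9 from the start, and its window is not shown. Each is given 5′ to 3′ on the strand of the gene, with the element nearest to the start in capitals, as TTTGAA or as its reverse complement TTCAAA.
Kif11 (chr19:37376336-37376395, plus strand): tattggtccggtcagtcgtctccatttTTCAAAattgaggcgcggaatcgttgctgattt
Kif15 (chr9:122951035-122951094, plus strand): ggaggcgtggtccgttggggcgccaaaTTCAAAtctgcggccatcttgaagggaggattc
Kif18b (chr11:102925089-102925148, minus strand): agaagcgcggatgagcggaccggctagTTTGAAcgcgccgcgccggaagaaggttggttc
Kif20b (chr19:34922338-34922397, plus strand): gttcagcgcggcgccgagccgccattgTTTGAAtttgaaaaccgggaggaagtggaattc
Kif22 (chr7:127042405-127042464, minus strand): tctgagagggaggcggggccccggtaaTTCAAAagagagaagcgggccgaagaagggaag
Kif23 (chr9:61946765-61946824, minus strand): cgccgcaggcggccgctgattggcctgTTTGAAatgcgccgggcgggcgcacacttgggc
Kif4 (chrX:100626055-100626114, plus strand): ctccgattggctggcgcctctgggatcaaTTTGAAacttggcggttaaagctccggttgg
In Kif20b another TTTGAA follows the one in capitals directly. The element begins 19 bases before the start in Kif11 and Kif15, 17 before it in Kif22, and 2, 3, 7 and 19 bases after it in Kif23, Kif18b, Kif20b and Kif4. Of the 7 genes, 5 were called in MII against GV, where 17.4% of all genes were called higher and 22.2% lower. Kif20b, Kif11 and Kif23 were higher and Kif22 and Kif18b lower, from 3.18 for Kif20b to −2.70 for Kif18b. The Kif11 call was lost without any of 5 libraries. Kif15 and Kif4 were not called. None of the 7 was called in EpiC against ESC, where 2.63% of all genes were called higher and 2.83% lower. A match of these letters is a description and does not show that a factor binds there.

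At the annotated 3′ end of the main coding transcript, the cytoplasmic polyadenylation elements TTTTAT or TTTTAAT were within the last 100 bases in 4 of the 12 kinesins called higher in MII than in GV (33.3%), in 1 of the 7 called lower (14.3%) and in 2 of the 16 not called (12.5%). Of 10369 genes with a coding transcript of at least 1 TPM in oocytes, 18.8% held 1. A poly(A) signal, AATAAA or ATTAAA, was in 10 of the 12, 5 of the 7 and 13 of the 16, and in 76.8% of those genes. For Kif20b, Kif20a, Kif23, Kif21a, Kif15, Kif3c and Kif5a the sequence searched differed in length from the transcript quantified, so its end may differ too. Of these, Kif20b and Kif20a are among the genes with an element. The ends that oocytes use were not measured here.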

How the data were processed

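RNA of mouse oocytes and pluripotent cells was extracted with TRIzol and made into stranded, paired-end TruSeq libraries, per the labels' protocols. Estimated counts and TPM per transcript were made with kallisto 0.43 and build mm10, per the submitters' processing notes, and were deposited as 1 table per library; the annotation release is not stated there. From the deposited estimated counts and TPM, values were summed over the transcripts of each gene and the counts rounded to whole numbers. Totals were 47463546 to 196788239 estimated counts per library, which are not whole reads, so intervals and p-values do not hold the error of assigning reads to transcripts.

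Genes were kept by edgeR's filterByExpr, scaled by TMM and tested with edgeR 4.0.16 in R 4.3.3 (robust quasi-likelihood, 1 mean per group, all 8 libraries, 4 residual degrees of freedom), with Benjamini-Hochberg adjustment over the 25045 genes kept and a threshold of 0.05. For transcript usage, diffSpliceDGE of edgeR was run on the estimated counts of single transcripts. The code was tested on simulated data. Alternatives were limma 3.58.1 on log2(TPM + 1), a pseudocount of 1, DESeq2 1.42.0, relative log expression, an offset for transcript length, no filter on low counts, protein-coding transcripts alone, the replicate number as a block, the compared groups alone and each library left out. With 1 library left out, the lone library of a group is assumed to vary like the others.

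The members, the lists of roles, partners and markers, and the tests were chosen with earlier results of these data known. All kinesins may be named, as may up to 3 called members per direction of each partner list with the largest fold change in a comparison. Transcripts are named where usage was called and a share of the gene's TPM differed by at least 30 percentage points, in genes of at least 5 TPM in both groups. The replicate numbers of the labels name libraries and say nothing of a shared animal, culture or day. Promoters came from RefSeq and 3′ ends from GENCODE M21, and a CHR motif was searched on both strands.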

Additional observations from a re-analysis of the deposited data

Results flagged for a closer look

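The change at maturation (MII over GV) differed from the change at naive exit (EpiC over ESC) for 13 kinesins by edgeR's quasi-likelihood test of that difference, where 13.2% of all genes were called above 0 and 16.4% below it. The values are differences of 2 log2 fold changes of TMM-scaled counts. Above 0 they were 3.35 for Kif20b, 3.32 for Kif5b, 3.24 for Kif20a, 3.12 for Kif18a, 2.75 for Kif23, 2.71 for Kif16b, 1.97 for Kif2a and 1.76 for Kif13a. On log2(TPM + 1) with limma, Kif20a was called above 0 and the other 7 were not called. Below 0 they were −2.34 for Kif24, −2.81 for Kif18b, −2.84 for Kif9, −3.44 for Kif17 and −5.56 for Kif1a, and all 5 were called below 0 on log2(TPM + 1) too. Without MII 1 the calls of Kif20b and Kif18a were lost, at 2.84 and 2.64. Kif2a was lost without any of 6 libraries, at 1.55 to 2.20, and Kif13a without any of 6, at 1.52 to 1.83. Kif24 was lost without ESC 1, at −2.25. In Kif1a the change at naive exit, 4.90, was the larger one, while in the other 12 genes the change at maturation was.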

How the results depend on the processing

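Of 85 single-gene calls of kinesins, 84 had the same sign and call with DESeq2, 83 with relative log expression, 82 without a filter on low counts, 82 with protein-coding transcripts alone and 77 with a length offset. With the compared groups alone 66 of 72 did, and on log2(TPM + 1) with limma 54 did, with 3 reversed. Calls held under every alternative for 44, and under every library left out for 57. Limma on log2(TPM + 1) moved the kinesin counts to 5 higher and 12 lower in MII against GV, 9 higher in GV against ESC, 7 higher and 16 lower in MII against EpiC, and 1 above and 13 below 0 for the difference of changes. It moved the counts over all genes to 2408 higher in MII against GV, 1287 higher and 1538 lower in EpiC against ESC, 4703 higher in MII against EpiC and 7600 below 0 for the difference. It moved the partner counts to 17 higher in MII against GV, 27 higher in MII against EpiC, and 2 higher and 5 lower in EpiC against ESC. In EpiC against ESC, DESeq2 called 1527 genes higher and 1426 lower, with 2 partners higher and 5 lower. Without the filter 1303 were higher and 1277 lower, with 2 partners higher, and with the compared groups alone 355 were higher and 1 kinesin was. Kif13a and Kif14 in MII against GV and Kif1b and Kif2c in MII against EpiC reversed on log2(TPM + 1), at −0.0056, −0.10, −0.26 and −0.63. Kif4 in MII against GV reversed to 0.20 under relative log expression and DESeq2, 0.022 with the block and 0.062 with the compared groups alone, and ran from −0.40 to 0.38 with 1 library left out, above 0 without MII 1 or GV 1. These causes were not tested.

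The replicate numbers were not treated as pairing, since the labels do not tie them to a shared source and each comparison has 2 pairs. Deviations of same-numbered libraries correlated at 0.31 for MII and GV, 0.71 for EpiC and ESC and −0.02 to 0.01 for other groups. With the replicate number as a block all 85 kinesin calls were the same and 7 more were made, of Kif14 in MII against GV (1.14, adjusted p = 0.0415 by edgeR), Kif1c in GV against ESC and Kif11, Kif14, Kif1b, Kif22 and Kif3b for the difference. With that block 3 partners were higher in EpiC against ESC, and usage was called for 2 kinesins in MII against GV, and the usage calls of Kif14 and Kif22 in MII against EpiC were lost; with the compared groups alone usage was called for 1. Leaving out 1 library gave 0 to 3 kinesins higher in EpiC against ESC, 9 to 15 higher in GV against ESC and 5 to 12 above 0 for the difference. It gave 135 to 570 genes higher and 272 to 682 lower in EpiC against ESC, 4929 to 8280 lower in GV against ESC, 2445 to 3800 below 0 for the difference and 0 to 1 partner higher in EpiC against ESC. Usage calls ran over 0 to 1 in MII against GV, 0 to 5 in GV against ESC and 1 to 13 in MII against EpiC.

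With 2 libraries a group, a call that was not made does not show that a gene did not change. Replicate 2 was deeper in every group, and depth and replicate number cannot be told apart. The relative level of MII against the other groups rests on the scaling, and the RNA per cell was not measured. TPM and counts hold the error of assigning reads among transcripts, which has no estimate here.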
